A study of Homo sapiens with 16 samples.

Results

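The CXCL chemokine cluster on chromosome 4 is a row of genes for small secreted signalling proteins, among them 6 that draw neutrophils into inflamed or injured tissue. Its 6 members examined here, CXCL8, CXCL6, CXCL1, CXCL5, CXCL3 and CXCL2, were taken by name and located by their RefSeq spans in GRCh38, out of 20037 protein-coding genes. Each span was extended by 10 kb on either side, and every listed ChIP-seq peak was counted and placed in the resulting 6 windows and in the whole cluster, which runs from 73730569 to 74109195 and covers 379 kb. The windows follow from the gene spans alone.

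The peaks come from T47D, a human Luminal A breast cancer cell line that expresses the estrogen receptor, in which NF-κB binding was compared between DAB2IP knockdown and control. The DAB2IP protein is a RasGAP and shuts down Ras signaling. Knockdown cells carried lentiviral shRNAs against DAB2IP, and all cells were selected with 2 µg/mL puromycin for 72 hours. The study's methods give the control as an empty vector, while its results name a scrambled shRNA for T47D cells of a spheroid assay. Chromatin was cross-linked with disuccinimidyl glutarate and formaldehyde and precipitated with antibodies to RELA (p65), RELB or NFKB2, with 2 libraries for each of the 6 combinations of condition and antibody. The labels do not say which shRNA a library carried, name no NF-κB stimulus and do not state whether libraries of a group came from separate cultures, so the spread between replicates may be technical. DAB2IP itself is not measured by a peak list, and the knockdown could not be checked from these data.

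The chemokines of this cluster are the CXC ligands that signal through the receptors CXCR1 and CXCR2. CXCL8, also called interleukin-8, and CXCL6 activate both receptors, while CXCL1, CXCL2, CXCL3 and CXCL5 act mainly through CXCR2. Their genes are textbook targets of NF-κB: in resting cells the dimers are held in the cytoplasm by inhibitors, and inflammatory signals release them to bind short DNA elements called κB sites close to the gene start. RELA is the main activating subunit of the canonical arm of the pathway, and RELB with the processed form of NFKB2 makes up the noncanonical arm.

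The 250 bases before each annotated start are shown because they hold the κB sites against which the peaks were placed. They are RefSeq sequences of GRCh38.p14, written 5′ to 3′ in the direction of transcription and ending at the base before the start. Capitals mark every match to GGNNTTTCC or to the 10-base NF-κB consensus on either strand.
CXCL8: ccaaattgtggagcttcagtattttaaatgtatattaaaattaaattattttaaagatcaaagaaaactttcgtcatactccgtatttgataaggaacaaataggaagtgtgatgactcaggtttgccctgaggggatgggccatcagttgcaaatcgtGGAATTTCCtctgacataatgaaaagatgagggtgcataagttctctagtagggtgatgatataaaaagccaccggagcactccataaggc
CXCL6: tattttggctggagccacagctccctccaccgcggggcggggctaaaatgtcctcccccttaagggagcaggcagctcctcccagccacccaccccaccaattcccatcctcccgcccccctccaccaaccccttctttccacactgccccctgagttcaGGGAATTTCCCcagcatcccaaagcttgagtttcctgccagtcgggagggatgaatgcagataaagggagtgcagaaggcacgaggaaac
CXCL5: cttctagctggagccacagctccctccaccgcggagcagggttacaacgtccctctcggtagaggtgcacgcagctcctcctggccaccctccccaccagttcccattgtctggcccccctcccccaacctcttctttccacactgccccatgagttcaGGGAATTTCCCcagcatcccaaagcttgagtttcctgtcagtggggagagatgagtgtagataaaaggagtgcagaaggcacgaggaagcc
CXCL1: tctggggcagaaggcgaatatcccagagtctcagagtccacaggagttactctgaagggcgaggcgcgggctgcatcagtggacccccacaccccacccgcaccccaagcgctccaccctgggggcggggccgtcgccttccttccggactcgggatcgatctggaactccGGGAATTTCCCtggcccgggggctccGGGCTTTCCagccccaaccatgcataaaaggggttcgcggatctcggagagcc
CXCL3: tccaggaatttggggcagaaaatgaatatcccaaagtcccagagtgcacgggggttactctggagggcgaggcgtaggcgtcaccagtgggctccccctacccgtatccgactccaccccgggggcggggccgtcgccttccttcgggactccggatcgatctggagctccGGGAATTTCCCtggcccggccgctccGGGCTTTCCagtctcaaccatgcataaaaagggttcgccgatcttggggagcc
CXCL2: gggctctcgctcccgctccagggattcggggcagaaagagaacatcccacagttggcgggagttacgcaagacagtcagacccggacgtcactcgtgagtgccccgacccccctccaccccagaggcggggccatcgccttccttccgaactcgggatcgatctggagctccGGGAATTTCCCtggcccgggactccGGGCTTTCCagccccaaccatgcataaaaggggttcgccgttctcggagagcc

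All 6 members held the 9-letter motif GGNNTTTCC in the promoter, defined as 250 bases before to 50 bases after the start, with 9 sites in total. The same motif occurred in 1435 of 22199 promoters of that length, or 6.46%. The 10-base consensus overlapped the motif in 5 of the 6 members, all but CXCL8, and occurred in 6.53% of all promoters. A match is a description of the letters and does not show that the site is bound.

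The sites lay at nearly the same place in every gene. The element GGAATTTCC started 91 bases before the start of CXCL8 (chr4:73740478-73740486), 89 before CXCL6 (chr4:73836589-73836597), 90 before CXCL5 (chr4:73998759-73998767), 78 before both CXCL1 (chr4:73869315-73869323) and CXCL3 (chr4:74038759-74038767), and 77 before CXCL2 (chr4:74099264-74099272). A second element, GGGCTTTCC, started 53 bases before the start in CXCL1, CXCL3 and CXCL2 and was not found in the other 3 members. The promoters fall into families by their letters. CXCL6 and CXCL5 were identical at 83.1% of aligned positions and CXCL1 and CXCL3 at 82.5%. CXCL2 matched CXCL3 at 73.7% and CXCL1 at 69.7%, and CXCL8 matched the others at only 40.9% to 44.7%.

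Listed peaks were about as frequent at the member promoters as at the promoters of chromosome 4. In the promoters of the 6 members, 8 of 72 member and library combinations held a peak (11.1%), against 9.18% of combinations over the promoters of chromosome 4. The CXCL8 promoter held no peak in any of the 12 libraries. The CXCL6 promoter was overlapped by 1 peak, in knockdown RELA replicate 2, with its summit 335 bases before the start. The CXCL1 promoter had a peak in knockdown RELB replicate 2 and in knockdown NFKB2 replicate 2, with summits 285 and 310 bases before the start. The promoter peaks of CXCL6 and CXCL1 thus came from knockdown libraries, and none recurred in the other library of its group.

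The CXCL5 promoter was the one most often overlapped, in 3 libraries. They were control RELA replicate 2, knockdown RELB replicate 2 and control RELB replicate 1. The CXCL3 promoter had 1 peak, in control RELB replicate 2, with its summit 219 bases before the start. The CXCL2 promoter also had 1, in knockdown NFKB2 replicate 2, with its summit 5 bases before the start. Over all members, 5 of the 8 were in knockdown and 3 in control libraries. The split by condition over the promoters of chromosome 4 is not given, so this count is no result about the members. These 8 peaks were small: each rested on 2 to 4 fragments at the summit, with −log10 p between 1.33 and 3.39 and a −log10 q of 0.

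The κB sites themselves were under a peak in 4 of 72 combinations (5.56%). Over the 39 promoters of chromosome 4 with the motif, the share was 5.77%. In CXCL5 the site was covered in knockdown RELB replicate 2 and control RELB replicate 1, one library of each condition. In CXCL1 both sites were covered in knockdown NFKB2 replicate 2, and in CXCL2 the site nearer the start was partly covered in the same library. The sites of CXCL8, CXCL6 and CXCL3 were under no peak in any library.

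Distances from the site to the nearest summit were mostly in the kilobase range. CXCL5 had the closest summits, at a median of 0.618 kb over the 12 libraries (0.139 to 69.6 kb). The medians of CXCL6 and CXCL1 were 1.22 kb (0.232 to 16.1 kb) and 1.48 kb (0.211 to 16.6 kb). CXCL8, CXCL3 and CXCL2 had medians of 1.99 kb (0.289 to 24.9 kb), 2.63 kb (0.145 to 29.6 kb) and 3.08 kb (0.044 to 29.1 kb). The ranges of all members overlapped widely. The upper end of each range came from knockdown RELA replicate 1 or knockdown RELB replicate 1, whose lists are the shortest. No distances at other promoters are set beside these.

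Widening the promoter to 1 kb on either side of the start raised the number to 29 of 72 combinations (40.3%), against 32.2% over chromosome 4. CXCL5 had a peak in 9 of 12 libraries, CXCL6 and CXCL1 in 6 each, CXCL3 and CXCL2 in 3 each, and CXCL8 in 2. In CXCL5, peaks of control RELA replicate 1 and control NFKB2 replicate 2 began 309 and 311 bases after the start. Those of knockdown NFKB2 replicates 2 and 1 began at 331 and 342 bases. These peaks overlapped one another, inside the gene and past the κB site (an overlap noticed after the values were seen). Peaks of control RELB replicate 2 (492 to 669 bases after the start) and knockdown RELB replicate 2 (595 to 754) overlapped the control RELA replicate 1 peak as well. For CXCL8 and CXCL3 the libraries with a peak within 1 kb were all controls. They were control RELA replicate 2 and control NFKB2 replicate 2 for CXCL8, and control replicate 2 of each antibody for CXCL3. By group, RELA had a peak in 3 of 12 knockdown and 7 of 12 control combinations, RELB in 3 and 4, and NFKB2 in 6 and 6. The first knockdown libraries of RELA and RELB, whose lists are the shortest, contributed 0 of the 29. No split by condition over the promoters of chromosome 4 is set beside these counts, which therefore show no trait of the members.

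**Figure D1:**
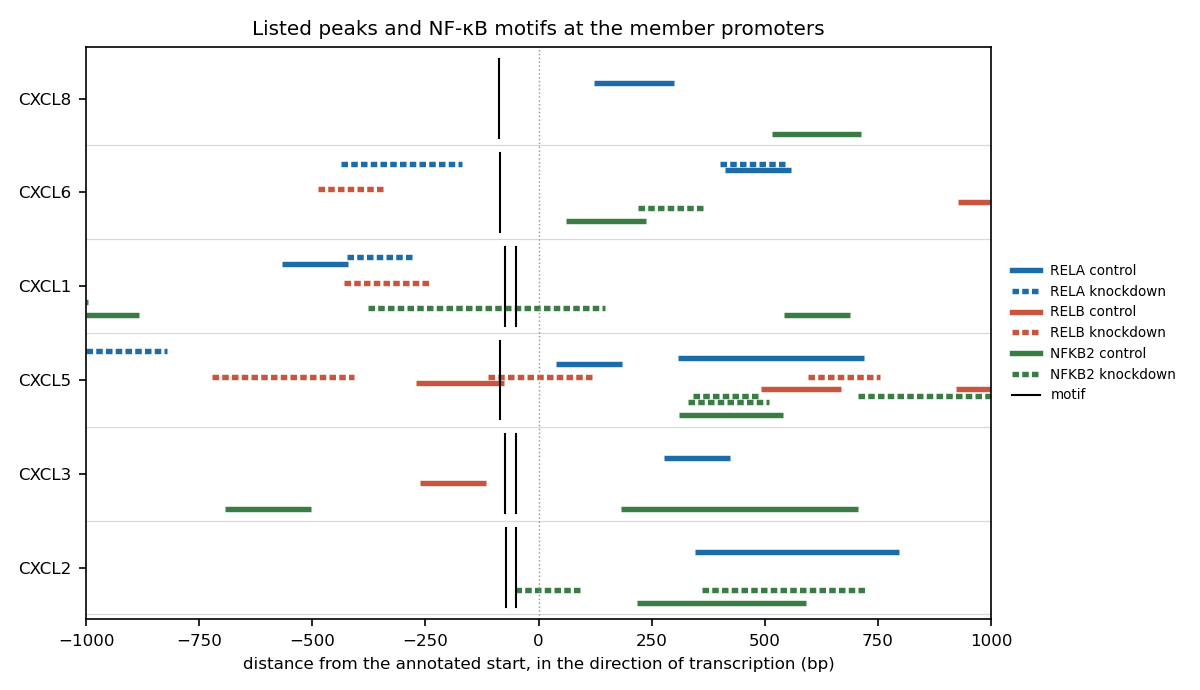
Listed peaks (horizontal bars, colored by antibody, solid for control and broken for knockdown libraries) and NF-κB motif sites (vertical black lines) within 1 kb of the start of each member; the x axis is the distance from the start in bp. Of the 29 member and library combinations with a peak, 9 belong to CXCL5 and 2 to CXCL8, and 4 combinations have a bar over a motif line.

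Across the whole cluster 956 peaks were listed in the 12 libraries, and their density lay near the middle of the range on the chromosome. Each library was set against 502 windows of the same length that tile chromosome 4, since the lists differ in length from 75078 to 708764 peaks. Relative density is the number of cluster peaks, with 0.5 added, over the mean of those windows. The percentile is the share of windows with fewer peaks, counting ties at equal weight above and below. The median percentile over the 12 libraries was 52.1, and all 12 libraries lay between the 5th and the 95th percentile of their windows. Without the 2 shortest lists, an alternative chosen after seeing the data, the median was 61.1.

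With the RELA antibody, the cluster held 11 and 94 peaks in the knockdown replicates and 82 and 80 in the controls. Relative to the chromosome these were 0.960, 0.971, 1.07 and 1.12 times the mean. With RELB, the knockdown replicates had 7 and 76 peaks (0.883 and 0.899 times the mean) and the controls 73 and 84 (0.910 and 1.08). With NFKB2, the knockdown replicates had 77 and 121 peaks (0.989 and 1.12) and the controls 127 and 124 (1.13 and 1.12). The lowest raw numbers were in the lists of knockdown RELA replicate 1 and knockdown RELB replicate 1, with 105534 and 75078 peaks in all, and the 12 relative values stayed close to 1.

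On the log2 scale of relative density, the RELA mean was −0.05 ± 0.01 (SD, n = 2) in knockdown and 0.13 ± 0.05 in control, a difference of −0.18 by an exact two-sided permutation test with p = 0.333. For RELB the means were −0.17 ± 0.02 and −0.01 ± 0.18, a difference of −0.16 (exact permutation p = 0.333). For NFKB2 they were 0.08 ± 0.13 and 0.17 ± 0.01, a difference of −0.09 (exact permutation p = 0.667). With 2 libraries against 2, no p below 0.333 can be reached. Both knockdown libraries lay below both controls for RELA and RELB, and 15.0% of the chromosome 4 windows and antibodies showed that same order. With peaks of −log10 p of at least 2 alone, the RELA difference turned to 0.22 and the RELB difference was −0.77. With the 20000 smallest p-values of each list, the differences were −1.04 for RELA, −0.39 for RELB and −0.53 for NFKB2, each again with an exact permutation p of 0.333.

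**Figure D2:**
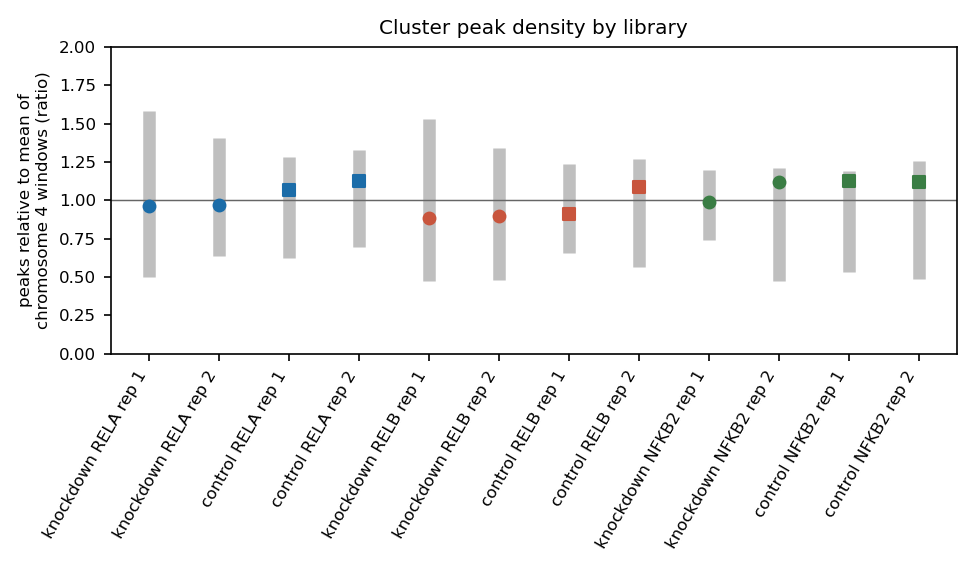
Cluster peak number relative to the mean of 502 chromosome 4 windows of the same length (y axis, ratio) in each of the 12 libraries (circles knockdown, squares control); grey bars span the 5th to 95th percentile of the windows in that library. All 12 points lie within their grey bar, between 0.883 and 1.13.

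Relative density also differed between the antibodies. The mean relative density on the log2 scale was 0.12 ± 0.09 (SD, n = 4) for NFKB2, 0.04 ± 0.11 for RELA and −0.09 ± 0.14 for RELB. By preparation, RELB was the lowest of the 3 antibodies in all 4 preparations (sets of 3 libraries that share a condition and a replicate number), and NFKB2 was the highest in 3 of 4. The highest mean minus the lowest was 0.21, with an exact one-sided permutation p of 0.00926 when antibody names were exchanged within preparations. Of the 502 chromosome 4 windows, 10.6% reached an exact p of at most 0.05 in the same test, so such a spread was not rare elsewhere on the chromosome. The call was lost with peaks of −log10 p of at least 2 (spread 0.47, exact permutation p = 0.255), and without control replicate 1, knockdown replicate 1 or knockdown replicate 2 (exact permutation p = 0.0556 each). The NFKB2 lists were also long, with 574722 to 708764 peaks, and the part of list length in the spread was not tested.

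None of the cluster's peaks stood out of the background by the peak caller's own adjustment. No peak reached a q of at most 0.05, and 1 of 956 had a −log10 q above 0. On chromosome 4, 0.342% of windows of the members' median length held a peak of q at most 0.05 in any library. The number of fragments at each summit, worked out from its fold and p, had a median of 3 and a maximum of 7 in the cluster, and 78.0% of the cluster's peaks rested on 3 or fewer. Sequencing depth is not given by the lists, and binding below this level was not detectable.

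**Figure D3:**
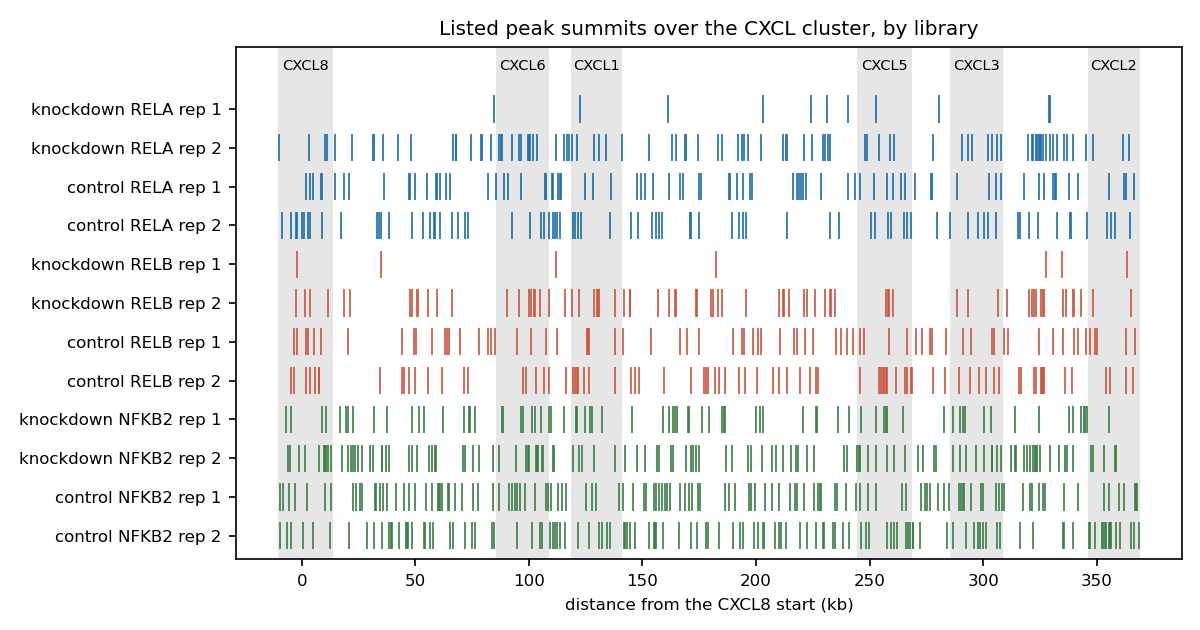
Summits of the listed peaks along the cluster (x axis, distance from the CXCL8 start in kb), with 1 row per library and colors by antibody; grey bands are the 6 member windows. Summits are spread over the whole cluster, and the first knockdown libraries of RELA and RELB have 11 and 7 of the 956 peaks.

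Peaks were not gathered on the genes. The 6 windows make up 35.5% of the cluster's length and held 359 of the 956 peaks (37.6%). The gene bodies make up 3.81% of the length and were overlapped by 45 peaks (4.71%). By member, the 12 libraries together listed 65 peaks for CXCL5, 64 for CXCL6, 63 each for CXCL8 and CXCL3, 53 for CXCL1 and 51 for CXCL2. Windows of the same length on chromosome 4 gave 57.2, 54.9, 57.5, 54.9, 54.5 and 55.1 peaks in that order, so that the members ran from 0.926 times (CXCL2) to 1.17 times (CXCL6) the chromosome's mean.

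CXCL8 (chr4:73740569-73743716, plus strand), a strong neutrophil attractant, had 0 and 4 RELA peaks with knockdown, against 5 and 9 in control. The RELB numbers were 1 and 4 in knockdown and 6 and 7 in control, and the NFKB2 numbers 4 and 10 against 7 and 6. RELA was the antibody for which the 2 conditions did not overlap after scaling to the chromosome, at −1.14 on the log2 scale (exact permutation p = 0.333). Raw RELB numbers were also lower in knockdown, yet their scaled values overlapped and differed by 0.14. That sign rests on the 0.5 peaks added to each number. Knockdown RELB replicate 1 has 1 peak against a mean of 0.529 per window. Without the 0.5, the ratios to the chromosome's mean were 1.89 and 0.753 in knockdown and 1.19 and 1.44 in control.

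CXCL6 (chr4:73836678-73838760, plus strand), the granulocyte chemotactic protein, had 0 and 11 RELA peaks in knockdown and 5 and 4 in control. It had 0 and 7 RELB peaks in knockdown and 3 and 4 in control, and 7 and 10 NFKB2 peaks in knockdown against 9 and 4 in control. Scaled to the chromosome, both knockdown libraries were above both controls for RELB (0.52, exact permutation p = 0.333) and NFKB2 (0.72, exact permutation p = 0.333). The RELB order rests on the 0.5 peaks added to each number, since knockdown RELB replicate 1 has 0 peaks. Without the 0.5, the RELB ratios to the chromosome's mean were 0 and 1.38 in knockdown and 0.624 and 0.861 in control, which overlap.

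CXCL1 (chr4:73869393-73871308, plus strand), first described as a melanoma growth factor, had 1 and 5 RELA peaks in knockdown and 3 and 5 in control. Its RELB numbers were 0 and 7 against 4 and 7, and its NFKB2 numbers 6 and 5 against 4 and 6. The conditions overlapped for every antibody. CXCL5 (chr4:73995642-73998677, minus strand), made by epithelial cells among others, had 1 and 5 RELA peaks in knockdown and 6 and 7 in control, 0 and 4 RELB peaks against 4 and 10, and 6 and 7 NFKB2 peaks against 5 and 10. Its scaled values also overlapped for every antibody, for RELB only because of the 0.5 added. Without the 0.5, the RELB ratios to the chromosome's mean were 0 and 0.756 in knockdown and 0.797 and 2.07 in control, without overlap.

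CXCL3 (chr4:74036589-74038689, minus strand), a close relative of CXCL1, had 0 and 7 RELA peaks in knockdown and 4 and 5 in control. RELB gave 0 and 3 against 4 and 6, and NFKB2 gave 6 and 9 against 10 and 9, with overlap for every antibody after scaling. The RELB overlap rests on the 0.5 added. Without it, the ratios to the chromosome's mean were 0 and 0.591 in knockdown and 0.831 and 1.29 in control, without overlap. CXCL2 (chr4:74097040-74099195, minus strand), the last gene of the row, had 0 and 3 RELA peaks in knockdown and 4 and 4 in control, and 1 and 2 RELB peaks against 5 and 4. After scaling, the RELB values overlapped and differed by 0.20, a sign that again rests on the 0.5 added. Knockdown RELB replicate 1 has 1 peak against a mean of 0.506 per window. Without the 0.5, the ratios to the chromosome's mean were 1.98 and 0.393 in knockdown and 1.04 and 0.859 in control. The NFKB2 numbers of CXCL2 were 1 and 5 in knockdown and 7 and 15 in control. The 15 peaks of control NFKB2 replicate 2 were the most of any member in any library and stood at percentile 99.8 of the same-length windows. That value was picked as the highest of all members and libraries. It rests on 1 library, and control NFKB2 replicate 1 stood at percentile 54.7.

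The scaled difference of CXCL2 was −1.62 for NFKB2 and −0.64 for RELA, each without overlap (exact permutation p = 0.333). For CXCL8 and CXCL2 with RELA, knockdown replicate 1 had 0 peaks, and its scaled value likewise comes from the 0.5 added. Of the 18 member and antibody combinations scaled with the 0.5 added, knockdown was lower without overlap in 3 and higher without overlap in 2. The conditions overlapped in 13. Over the chromosome's windows of the members' length, 13.7% of combinations were lower without overlap and 19.1% higher. The 3 lower ones are 16.7% of 18 and the 2 higher ones 11.1%. This tally depends on the 0.5 added. Without it, CXCL5 and CXCL3 with RELB would also be lower without overlap, and CXCL6 with RELB would overlap. Shares over the chromosome without the 0.5 are not given, so the tally is no result about the members.

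**Figure D4:**
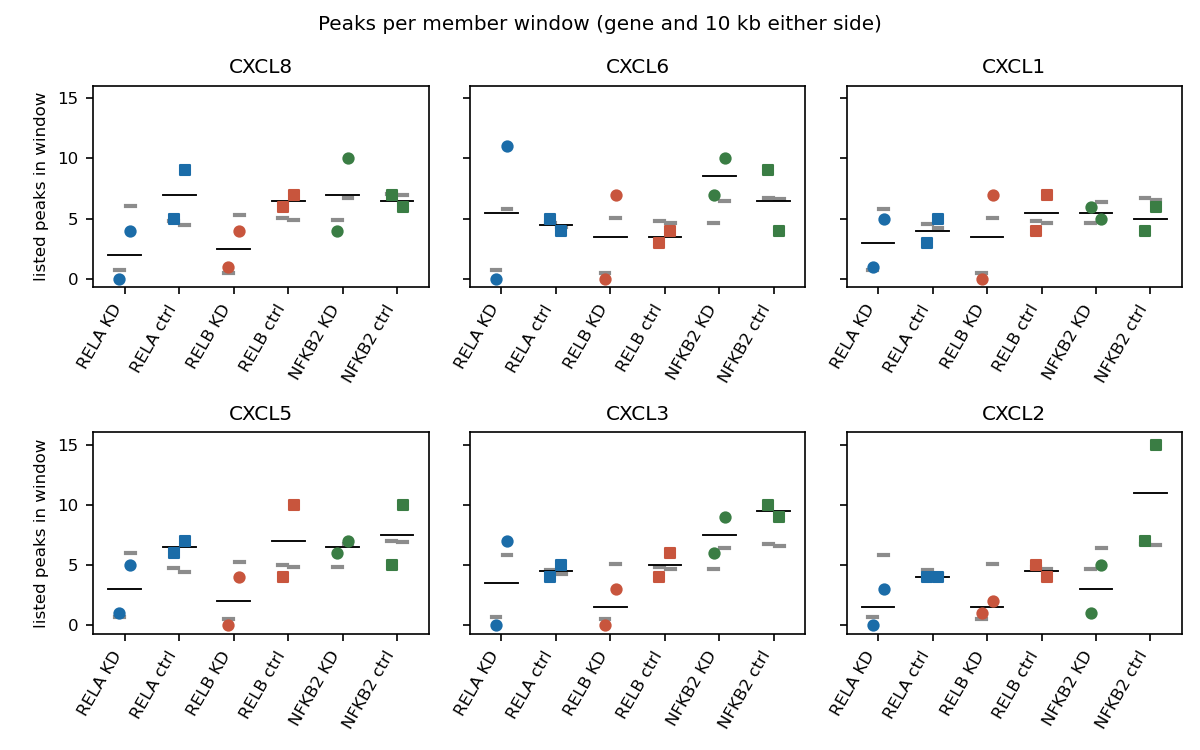
Listed peaks in each member window (y axis) for the 6 groups (x axis, KD knockdown and ctrl control); points are the 2 libraries, black lines their mean and grey dashes the mean of same-length chromosome 4 windows in each library. CXCL2 with NFKB2 runs from 1 and 5 in knockdown to 7 and 15 in control, while CXCL1 overlaps for every antibody.

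The study reported unique upregulated peaks with DAB2IP knockdown for each antibody. It stated that loss of DAB2IP increased RELA and RELB binding across the genome. The rule used here is a different one, based on presence or absence of any peak in a gene window. A gene was taken as knockdown-only when its window held a peak in each knockdown library of an antibody and in no control library, and control-only in the mirror case. For each of the 3 antibodies, 0 of 6 members were knockdown-only and 0 of 6 were control-only. With the same windows on chromosome 4, 0.00786% of combinations were knockdown-only and 0.609% control-only. Over all protein-coding genes, each with the same 10 kb on either side, the shares were 0.0749% and 0.912%. Each of the 6 control libraries had a peak in all 6 windows, so no member could be knockdown-only. Knockdown RELA replicate 2, knockdown RELB replicate 2 and both knockdown NFKB2 libraries also had a peak in all 6 windows. No member could therefore be control-only either, and the measure is uninformative in both directions. Of the 72 member and library combinations, 64 had a peak somewhere in the window. The 8 empty ones were all in the first knockdown libraries of RELA and RELB, each of which had a peak at 2 members. Without knockdown RELA replicate 2, 4 members became control-only for RELA, and without knockdown RELB replicate 2, 4 became so for RELB, each resting on the short list alone.

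The peak with the smallest p-value of each member lay in a control library in 6 of 6 cases and away from the κB sites. Over the chromosome 4 windows of the members' length, 54.5% had theirs in a control library. This ranks p-values across lists of unknown depth, of which 2 knockdown lists are far shorter than the rest, and the part of depth was not tested. For CXCL8 it was chr4:73735655-73735856 in control RELB replicate 2, 4.81 kb before the start, with 6 fragments over a background of 0.698, a fold enrichment of 4.12 and a −log10 p of 5.06. It was the one that recurred, with an overlapping peak in 4 other libraries, of RELA and NFKB2 and of both conditions. The other 5 were overlapped by no peak of another library.

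For CXCL5 that peak was chr4:73996390-73996586 in control RELB replicate 2, inside the gene and 2.18 kb after the start, with 6 fragments and a −log10 p of 5.27. For CXCL6 it lay 6.95 kb before the start (chr4:73829636-73829838) and for CXCL1 4.29 kb before the start (chr4:73864986-73865176), both in control RELA replicate 1 with 5 fragments. For CXCL3 it lay 6.51 kb after the start (chr4:74032042-74032266, control NFKB2 replicate 1, 5 fragments), and for CXCL2 8.49 kb after it (chr4:74090614-74090812, control RELB replicate 1, 4 fragments). Their −log10 p-values ran from 3.41 to 4.55, and all 6 peaks had a −log10 q of 0.

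The peak of smallest p-value in the whole cluster was outside the member windows. It lay at chr4:73950685-73951001 in control RELB replicate 1, with 7 fragments, a fold enrichment of 4.42, a −log10 p of 5.64 and a −log10 q of 0.110. Its distance was 47.8 kb to the start of CXCL5 and 29.9 kb to PF4, the platelet factor gene and nearest coding gene. Peaks of 3 other libraries overlapped it.

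Merging overlapping peaks of the 12 libraries gave 556 regions in the cluster. Of these, 58.6% were called in 1 library, against 57.8% over chromosome 4, and 36 (6.47%) in 4 or more libraries, against 8.28%. The most widely called regions were 3, each in 7 libraries, made up of 2 knockdown and 5 control libraries. They lay at chr4:73849324-73850545 between CXCL6 and PF4V1 with no coding gene, at chr4:73852481-73853356 over PF4V1, a variant of the platelet factor gene, and at chr4:73985707-73987069 over PPBP, the pro-platelet basic protein. None of the 3 lay over a member gene. Their peaks had 3 to 6 fragments and −log10 p of 1.60 to 4.81.

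The overlap of library pairs in the cluster was highest within preparations. The Jaccard index, which is the bases covered in both lists over those covered in either, averaged 3.76% in the 12 pairs of the same condition and replicate number but with another antibody. It was 1.85% in the 6 pairs of the same condition and antibody, 1.96% in the 12 pairs of the same antibody in the other condition, and 1.87% in the 36 pairs that shared neither. The values over chromosome 4 were 3.77%, 2.14%, 2.25% and 2.12%. Replicates of one group thus had a mean overlap close to that of pairs that shared neither condition nor antibody, and the difference was not tested.

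Other genes of the pathway were examined by the same rules. The 3 other chemokine genes of the same stretch (PF4V1, PF4 and PPBP), 8 further CXC ligands, 8 receptors and 9 NF-κB subunits and inhibitors held no knockdown-only gene for any antibody and no peak of q at most 0.05. A single gene, the receptor CXCR6, was control-only, for RELB. The number of peaks per 10 kb, taken as the median over libraries and then over genes, was 2.33 for the 6 members, 2.30 for their neighbors in the stretch, 1.80 for the further CXC ligands, 1.5 for the receptors and 1.08 for the NF-κB genes. The ranges of all lists overlapped, from 1.81 to 2.49 in the members and from 0.704 to 2.28 in the NF-κB genes. Windows of the neighbors overlap those of members in part, so some peaks count in both lists. These densities were not scaled, and the other lists lie partly on other chromosomes. On chromosome 4, CXCL9, CXCL10, CXCL11, CXCL13 and NFKB1 had 1.91, 2.23, 2.23, 1.87 and 2.06 peaks per 10 kb.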

How the data were processed

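ChIP-seq was done on 16 samples of T47D cells: 12 immunoprecipitations with a peak list each and 4 inputs, not used here except through the authors' peak calls. Per the labels and the study's methods, the authors had reads mapped to hg38 with BWA (0.7.12) and peaks called per library with MACS2 (2.1.0); CASAVA (1.8) and DiffBind are also named in the submitters' processing notes. In the deposited lists, the score is the −log10 p-value times 10 without its decimals. The ratio deposited by the authors is a fold enrichment, taken at the summit, and −log10 p- and −log10 q-values stand beside it. These columns served to describe or filter the peaks of a single list, and the p-value also to pick each member's peak of smallest p over the 12 lists, which differ in depth.

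Groups came from the sample labels. The members and gene lists were chosen with earlier results of these data known. They are named throughout; each member's peak of smallest p, its promoter peaks and the 3 most widely called regions are named by rule. Gene spans and promoters came from RefSeq tables of GRCh38.p14. A peak counted where it overlapped a window by at least 1 bp. Intervals over 5 kb (1332 in knockdown RELA replicate 2, 1361 in knockdown NFKB2 replicate 2, none in the cluster) were left out, and repeated intervals counted once. Chromosome 4 windows without a peak in any list were left out. The p-value came from exact permutation over libraries. Promoters were aligned globally over 300 bases. Fragments at a summit were recovered from fold and p with a pseudocount of 1 and the Poisson distribution, and were whole within 0.01 for 99.98% to 100% of chromosome 4 peaks in each list after scaling by 0.91 (knockdown RELA replicate 1) and 0.982 (knockdown RELB replicate 1). Counting steps were tested on simulated data. Depth is unknown, since the lists give no read totals. Software was biopython 1.88, matplotlib 3.10.9, scipy 1.17.1, pandas 2.3.3 and numpy 2.4.6 under Python 3.11.15. Alternatives covered the peak threshold, window, scaling, replicate pairing and leaving out each library.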

Additional observations from a re-analysis of the deposited data

How the results depend on the processing

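Of the values under an alternative, 99 had an unchanged sign and call or, for counts and percentiles, moved by less than the limit set for them. Another 5 moved further, 6 lost their call and 1 reversed. The 99 include knockdown-only and control-only counts that stayed at 0, a measure uninformative with the main settings. They also include knockdown differences, whose exact permutation p could not fall below 0.333, so their call could not change. The size of the knockdown difference depended on the peaks kept: with the 20000 smallest p-values of each list, the RELA, RELB and NFKB2 differences were −1.04, −0.39 and −0.53 (exact permutation p = 0.333 each), and with −log10 p of at least 2 it was −0.77 for RELB (exact permutation p = 0.333) and −0.0040 for NFKB2 (exact permutation p = 1). With the other planned settings it ran from −0.35 to −0.13 for RELA, from −0.33 to −0.15 for RELB and from −0.21 to −0.04 for NFKB2. With −log10 p of at least 2, the RELA difference between knockdown and control reversed to 0.22 (exact permutation p = 1) and member promoters with a peak within 1 kb fell from 29 to 17 combinations. With the 300-base promoter the number was 8 and with 5 kb on either side 59. The antibody spread lost its call with −log10 p of at least 2 (0.47, exact permutation p = 0.255), with the 20000 smallest p-values of each list (0.22, p = 0.782), with covered bases in place of peak number (0.22, p = 0.0509), and in 3 of the 4 fits without 1 preparation (0.17 to 0.26 over the 4, p of 0.0278 or 0.0556, where 0.0278 is the smallest 3 preparations allow). The cause was not tested. Without each library in turn, the RELA difference ran from −0.22 to −0.14, the RELB difference from −0.28 to −0.03 and the NFKB2 difference from −0.19 to −0.0015. Members control-only ran from 0 to 4 for RELA and RELB and stayed at 0 for NFKB2, and the median percentile ran from 44.9 to 59.3. Leaving out both short lists, an alternative chosen after seeing the data, gave 61.1 for the percentile and 29 for the promoters. With the replicate block, the differences were again −0.18, −0.16 and −0.09, with exact permutation p of 0.5, 0.5 and 1, where 0.5 is the smallest p 2 pairs allow. Deviations of same-numbered libraries over the 502 windows correlated at 0.015, 0.229 and 0.296 for RELA, RELB and NFKB2, and the labels tie no number to a shared culture. A q of at most 0.05 left 0 cluster peaks and gave no value. Most peaks rest on 3 or fewer fragments, which limits every count of peaks at a single gene.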
